A study of Homo sapiens with 9 samples.

Results

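The genes for proteasome subunits and their assembly chaperones made up 46 of the 18859 genes in the deposited log2 FPKM matrix. They were chosen by name, as protein-coding genes whose symbol is PSM, a letter from A to G and a number with nothing after it. By role they were 7 alpha ring genes (PSMA1 to PSMA7), 7 constitutive beta ring genes (PSMB1 to PSMB7), 3 immunoproteasome genes (PSMB8 to PSMB10) and 6 ATPase genes of the 19S particle (PSMC1 to PSMC6). The others were 11 non-ATPase genes of the 19S particle (PSMD1 to PSMD4, PSMD6 to PSMD8 and PSMD11 to PSMD14), 4 activators (PSME1 to PSME4), 1 inhibitor (PSMF1) and 7 assembly chaperones (PSMD5, PSMD9, PSMD10 and PSMG1 to PSMG4). PSMC3IP, whose name goes on after the number, was left out, and PSMB11 was listed outside the matrix at 0 to 0.0348 FPKM. FPKM are fragments scaled to gene length and to the size of the library.

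The cells were ACHN, an adherent human renal carcinoma line kept in MEM. There were 3 groups, cells with 0.1% DMSO, cells with piericidin A at 25 nM and cells with piericidin A at 50 nM, each sequenced as 3 RNA libraries. Piericidin A inhibits complex I of the mitochondrial respiratory chain, and the series asked how it acts on renal carcinoma cells. The labels leave out the treatment time, whether piericidin A wells also held DMSO and whether a group's 3 samples came from separate cultures. The p-values therefore measure the spread between these libraries, which may be technical.

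The proteasome is the barrel-shaped protease that degrades proteins tagged with ubiquitin. Alpha and beta rings form its 20S core, in which some beta subunits cut the substrate, and the 19S particle caps the core, binds ubiquitin chains and uses ATPases to unfold substrates and thread them in. Dedicated chaperones assemble the alpha ring and the base of the 19S particle, interferon exchanges the catalytic beta subunits for immunoproteasome forms, and the transcription factor NFE2L1 is known to raise most subunit genes together when proteasome activity is limiting.

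The libraries held 24365472 to 29245674 fragments, recovered from FPKM and gene length. Replicate 3 of 25 nM stood apart, with a chi-square per degree of freedom of 17.2 and 19.6 against its 2 fellow libraries, where all other pairs within a group gave 1.79 to 8.49. Its sum of FPKM, 310119, was the highest of the 9, so the counts and summed levels of the 46 genes and of the main complexes at 25 nM are also given without it. The sum of FPKM over all genes was 249274 to 255396 in DMSO, 278870 to 310119 at 25 nM and 276520 to 293816 at 50 nM. It was thus above DMSO in every treated library, and summed levels of the complexes were not set against it. All 7 renal epithelial markers were listed, with sums of 281 to 287 FPKM in DMSO, 276 to 313 FPKM at 25 nM and 275 to 281 FPKM at 50 nM. The sums hide differences between markers, whose log2 fold changes over DMSO ran from -0.97 to 0.29 at 25 nM and from -1.32 to 0.36 at 50 nM. Leukocyte markers summed to at most 0.154 FPKM, with PTPRC and CD3E not listed, endothelial markers to at most 0.0303 FPKM and fibroblast markers to 2.31 to 3.72 FPKM.

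Most proteasome genes were higher in piericidin A cells than in DMSO cells, and more of them passed the test at 25 nM than at 50 nM. At 25 nM 40 of the 46 rose and PSMD12 fell, where 52% of the 15541 tested genes changed, 26.3% upwards and 25.8% downwards. At 50 nM 24 rose and 4 fell (PSMC1, PSMD12, PSMD5 and PSMD10), where 60.7% of tested genes changed, 29.2% upwards and 31.5% downwards. The median log2 fold change of the 46 was 0.36 at 25 nM and 0.20 at 50 nM, beside 0.02 and 0.00 over all tested genes. These calls come from limma on log2(FPKM + 0.1) at an adjusted p under 0.05, and both doses are set against the same 3 DMSO libraries.

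PSMA6 and PSMD9 passed the expression filter of 0.5 FPKM in at least 3 libraries through piericidin A libraries alone, so they could be tested because they were high there. Of the other 44 members, 38 rose and 1 fell at 25 nM, with a median of 0.34, and 22 rose and 4 fell at 50 nM, with a median of 0.16. Without replicate 3 of 25 nM, 38 of the 46 rose and 1 fell at that dose, with a median of 0.28. With FPKM rescaled to the fragment total of each library, 33 rose and 2 fell at 50 nM, with a median of 0.27. All tested genes moved upwards under that scaling too, with 34.1% higher and 26.4% lower at 50 nM and a median of 0.07. In 40 of the 46, the 3 libraries at 25 nM lay above the 3 DMSO libraries without overlap, as in 31.5% of all tested genes, and at 50 nM this held for 29, beside 33.9%. The treated libraries lay below DMSO without overlap in 2 members at 25 nM, beside 31.1% of all tested genes, and in 5 members at 50 nM, beside 36.5%. The libraries are bulk RNA, so fewer or more cells of a kind and less or more RNA per cell cannot be told apart.

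**Figure D1:**
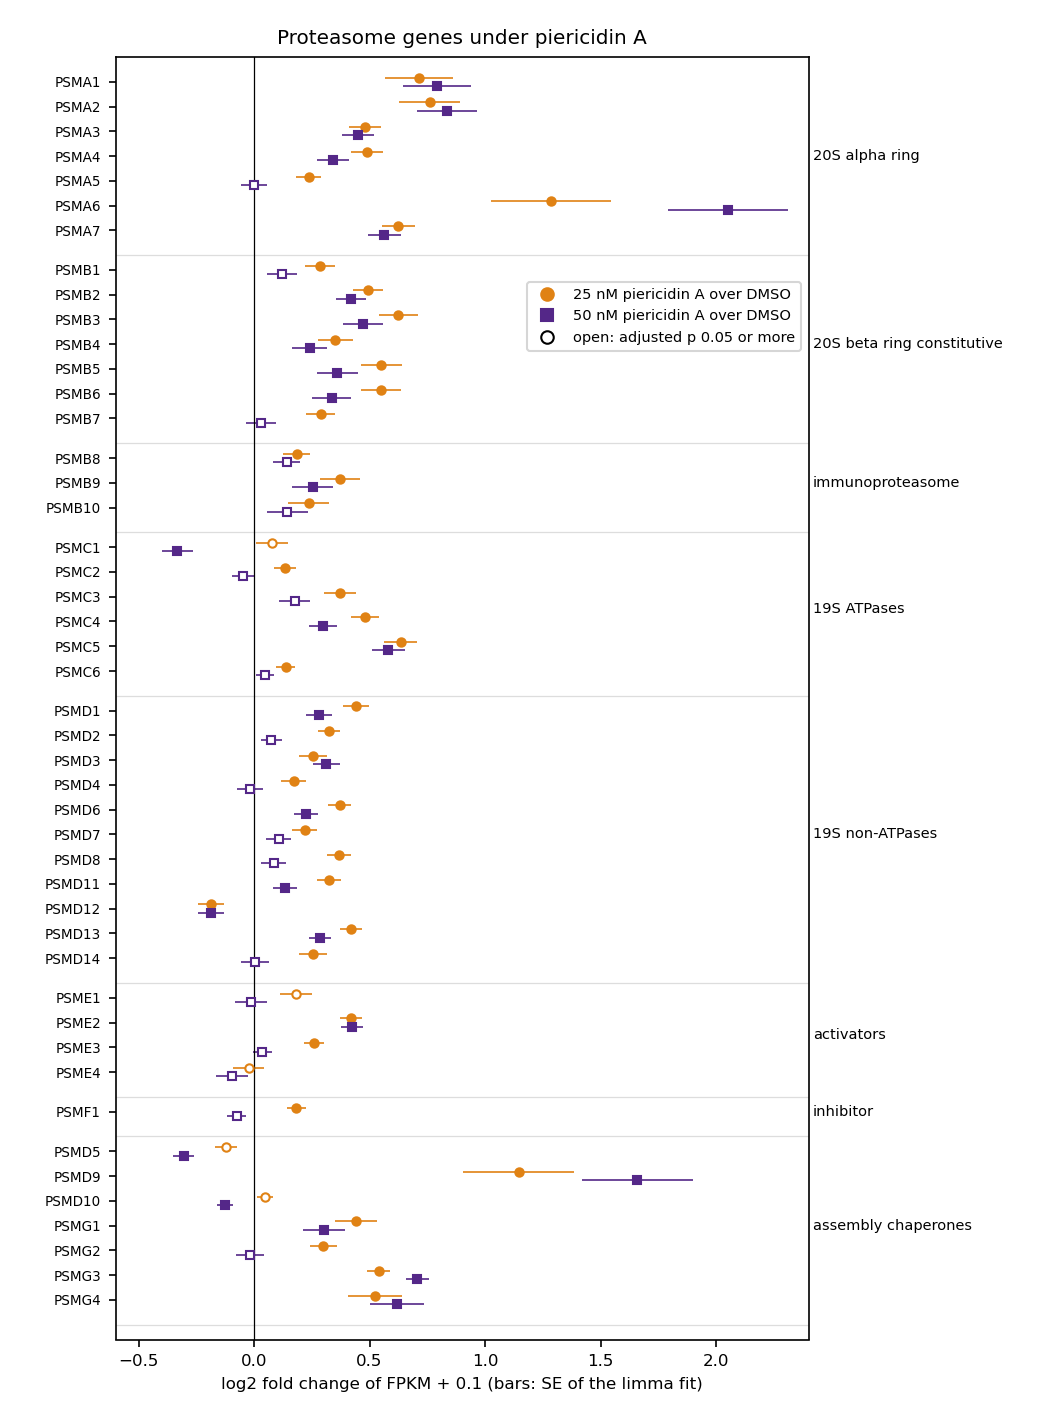
Log2 fold change of FPKM + 0.1 (x axis) for each of the 46 genes (y axis, grouped by role), at 25 nM (circles) and 50 nM (squares) over DMSO, with bars for the SE of the limma fit and open symbols for an adjusted p of 0.05 or more. At 25 nM 40 genes are filled and right of 0, at 50 nM 24 are, and PSMA6 and PSMD9 lie farthest right.

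Upstream sequence is shown for 3 members, PSMB3 and PSMA3, which rose at both doses, and PSMD12, which fell at both, because they differ in which response element letters they hold. PSMB3 (ENSG00000277791, a structural beta ring gene) is on chromosome 17 and its window is chr17:38752491-38752735 on the plus strand. PSMA3 (ENSG00000100567, an alpha ring gene) is on chromosome 14 with the window chr14:58244593-58244830 on the plus strand. PSMD12 (ENSG00000197170, a subunit of the 19S lid) is on chromosome 17 with the window chr17:67366628-67366827 on the minus strand. All 3 come from RefSeq on GRCh38.p14, start 250 bases before the annotated gene start, end before any annotated exon and are written 5′ to 3′ on the strand of the gene. Capitals mark matches to TGACNNNGC, the core of the antioxidant response element that NFE2L1 and NFE2L2 bind, and to CCAAT, each searched on both strands, so that ATTGG is a CCAAT on the other strand.
PSMB3: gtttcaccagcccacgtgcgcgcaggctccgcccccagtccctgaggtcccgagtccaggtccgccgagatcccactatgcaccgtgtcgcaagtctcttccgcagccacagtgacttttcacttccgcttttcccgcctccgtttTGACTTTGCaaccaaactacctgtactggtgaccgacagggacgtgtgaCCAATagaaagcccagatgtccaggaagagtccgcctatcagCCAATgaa
PSMA3: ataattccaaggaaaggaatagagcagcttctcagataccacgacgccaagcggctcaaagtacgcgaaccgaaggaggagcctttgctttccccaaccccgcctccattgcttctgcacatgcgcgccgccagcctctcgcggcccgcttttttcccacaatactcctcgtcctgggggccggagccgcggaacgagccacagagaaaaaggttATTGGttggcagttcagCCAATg
PSMD12: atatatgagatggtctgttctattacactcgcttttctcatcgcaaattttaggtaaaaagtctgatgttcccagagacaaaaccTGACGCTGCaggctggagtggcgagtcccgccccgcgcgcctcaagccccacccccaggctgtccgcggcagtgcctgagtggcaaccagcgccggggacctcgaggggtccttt
PSMB3 holds an antioxidant core and 2 CCAAT boxes, PSMA3 holds CCAAT boxes and no such core in this window, and PSMD12 holds a core and no CCAAT box. No marked motif overlaps another.

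RefSeq windows of 250 bases before to 50 after the gene start were at hand for 40 of the 46 genes, 49 windows in all. The full set, which lacks some genes and is not limited to tested genes, held 35116 windows. The antioxidant core was found in 15 of the 49 (30.6%) and in 13.3% of all windows. Genes with it included members that rose at both doses (PSMB3, PSMC4, PSMC5, PSMD1, PSMD3 and PSME2) and members that fell at 50 nM (PSMD5 and PSMD12). CCAAT was found in 19 of the 49 (38.8%), beside 34.6% of all windows. GAANNTTC or TTCNNGAA, the heat shock element, was found in 3 (6.12%), beside 13.5% of all windows, and GAAA followed by any 2 bases and a second GAAA, the core of the interferon-stimulated response element, in 7 (14.3%), beside 3.57%. These are matches of letters and not tests of binding.

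The 17 genes of the 20S core, which form the alpha and beta rings, rose together at 25 nM, with a median log2 fold change of 0.49, and 12 of the 17 rose at 50 nM, with a median of 0.34. Removing the trend of fold change with gene length left 14 risen at 25 nM (median 0.31) and 12 risen with 1 fallen at 50 nM (median 0.25). Without replicate 3 of 25 nM, 16 rose at that dose (median 0.41). PSMA1, PSMA2, PSMA6 and PSMB10 have uncertain levels, as described below. Of the 13 core genes without them, 13 rose at 25 nM (median 0.48) and 9 at 50 nM (median 0.34). The summed level of the 17 was 726, 705 and 707 FPKM in the 3 DMSO libraries, 915, 920 and 1113 FPKM at 25 nM and 855, 901 and 908 FPKM at 50 nM. Both piericidin A groups lay above DMSO without overlap, as did their sums of FPKM over all genes, and the highest library was replicate 3 of 25 nM. The mean was 983 ± 113 FPKM at 25 nM, against 713 ± 11.3 FPKM in DMSO (SD, n = 3 each), a ratio of 1.38 and a difference of 270.1 FPKM that came to 205 FPKM without replicate 3 of 25 nM. It was 888 ± 28.5 FPKM at 50 nM, a ratio of 1.25 to DMSO. The exact two-sided permutation p was 0.1 for each dose, the smallest that 3 against 3 libraries allow.

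In the alpha ring, which gates entry to the core, all 7 genes rose at 25 nM and 6 at 50 nM, with median log2 fold changes of 0.62 and 0.56. These counts and medians include PSMA1, PSMA2 and PSMA6, whose levels and fold changes are uncertain. PSMA6 also passed the expression filter through piericidin A libraries alone. PSMA7 (ENSG00000101182) had 88, 87.6 and 85.6 FPKM in DMSO, 125, 128 and 151 FPKM at 25 nM and 122, 132 and 133 FPKM at 50 nM. All 6 piericidin A libraries were above all DMSO libraries, and the doses overlapped. Its log2 fold change was 0.62 ± 0.07 (SE, adjusted p = 0.000131) at 25 nM and 0.56 ± 0.07 (adjusted p = 0.000131) at 50 nM. PSMA3 and PSMA4 rose at both doses, by 0.48 and 0.45 for PSMA3 and by 0.49 and 0.34 for PSMA4. PSMA5 rose at 25 nM by 0.24 and averaged 13.5 FPKM both at 50 nM and in DMSO.

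The other 3 alpha ring genes, PSMA1, PSMA2 and PSMA6, had low listed levels. PSMA6 (ENSG00000100902) was counted in 18, 25 and 29 fragments in DMSO, 89, 70 and 68 fragments at 25 nM and 159, 125 and 161 fragments at 50 nM. Those correspond to 0.102, 0.144 and 0.153 FPKM, to 0.554, 0.416 and 0.433 FPKM, and to 0.945, 0.74 and 0.909 FPKM. The groups did not overlap and stood in the order of the dose. PSMA6 had the largest log2 fold changes of the 46, 1.28 ± 0.26 (adjusted p = 0.0028) at 25 nM and 2.05 ± 0.26 (adjusted p = 0.000136) at 50 nM. It was tested only because it was high in piericidin A libraries, so these p-values cannot serve as support for a rise. PSMA1 rose by 0.71 and 0.79 and PSMA2 by 0.76 and 0.83 at 25 and 50 nM.

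These low levels went with overlapping gene models. In GENCODE v29, on the same GRCh38 assembly as hg38, 5 members had at least 50% of their coding bases inside an exon of a second coding gene on the same strand. They were PSMA2 (97.1%, with AC010132.3), PSMA1 (88.64%, with AC018523.2), PSMA6 (70.35%, with AL121594.1), PSMD9 (58.74%, with AC069503.2) and PSMB10 (58.31%, with AC040162.1). Mean levels of these 5 in DMSO were 0.133 to 3.74 FPKM (median 0.729), while the other 41 had 0.769 to 121 FPKM (median 20.3). The 4 listed overlapping genes averaged at most 0.185 FPKM in any group. The rule by which a fragment inside 2 genes was counted is not given in the sources used here, so the levels and fold changes of these 5 members are uncertain. Among the other 41 members 35 rose and 1 fell at 25 nM (median 0.32), and 20 rose and 4 fell at 50 nM (median 0.14).

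**Figure D2:**
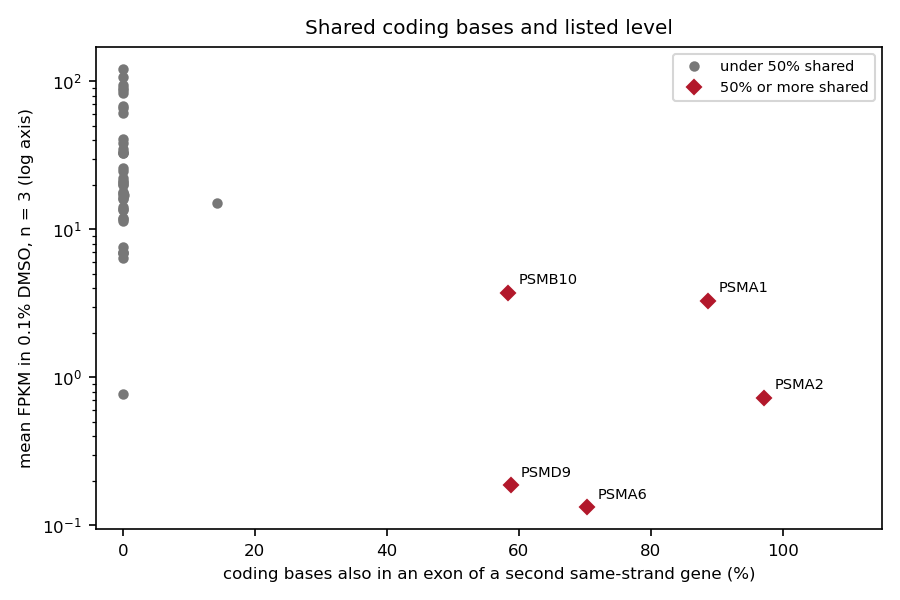
Mean FPKM in 0.1% DMSO (y axis, log scale, n = 3) against the percent of a gene's coding bases that also lie in an exon of a second coding or non-coding gene on the same strand (x axis), 1 point per gene for the 46 genes. The 5 genes at 50% or more, labelled, are at 0.133 to 3.74 FPKM, and among the others PSMG4 alone is under 1 FPKM.

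In the constitutive beta ring all 7 genes rose at 25 nM and 5 at 50 nM, with medians of 0.49 and 0.34. Taking out the length trend left 6 risen at 25 nM (median 0.28), and at 50 nM 5 rose and 1 fell (median 0.17). PSMB3, whose upstream sequence is printed above, had 109, 107 and 104 FPKM in DMSO, 152, 153 and 191 FPKM at 25 nM and 141, 147 and 157 FPKM at 50 nM. Neither dose overlapped DMSO. Its log2 fold change was 0.62 ± 0.08 (adjusted p = 0.000336) at 25 nM and 0.47 ± 0.08 (adjusted p = 0.00113) at 50 nM. PSMB2 (ENSG00000126067), another structural subunit, had 24.5, 25.4 and 24.3 FPKM in DMSO, 33.6, 32.4 and 38.9 FPKM at 25 nM and 32.4, 33.1 and 33.9 FPKM at 50 nM. It too was above DMSO in all 6 piericidin A libraries, by 0.49 ± 0.06 (adjusted p = 0.00025) and 0.42 ± 0.06 (adjusted p = 0.0004) at 25 and 50 nM. Of the remaining structural genes, PSMB4 rose at both doses (0.35 and 0.24) and PSMB1 at 25 nM (0.28).

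The constitutive catalytic genes are PSMB5, PSMB6 and PSMB7, which carry the chymotrypsin-like, caspase-like and trypsin-like activities. PSMB5 (ENSG00000100804) had 27, 25.2 and 25.9 FPKM in DMSO, 36.6, 34 and 44.6 FPKM at 25 nM and 32.3, 35 and 33 FPKM at 50 nM. It was above DMSO in every piericidin A library, by 0.55 ± 0.09 (adjusted p = 0.000826) at 25 nM and 0.36 ± 0.09 (adjusted p = 0.00619) at 50 nM. PSMB6 (ENSG00000142507) had 100, 91 and 90.4 FPKM in DMSO, 127, 129 and 158 FPKM at 25 nM and 113, 123 and 120 FPKM at 50 nM. The order was the same, with no overlap between groups and the highest level at 25 nM. Its log2 fold change was 0.55 ± 0.08 (adjusted p = 0.000663) at 25 nM and 0.34 ± 0.08 (adjusted p = 0.0072) at 50 nM. PSMB7 (ENSG00000136930) had 83.6, 82.9 and 83.1 FPKM in DMSO, 95.2, 96.9 and 114 FPKM at 25 nM and 82, 86 and 87.1 FPKM at 50 nM. It was above DMSO at 25 nM (0.29 ± 0.06, adjusted p = 0.00486) and overlapped DMSO at 50 nM (0.03 ± 0.06, adjusted p = 0.698). Without the length trend PSMB7 was no longer called at 25 nM (0.06) and fell by 0.093 at 50 nM.

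**Figure D3:**
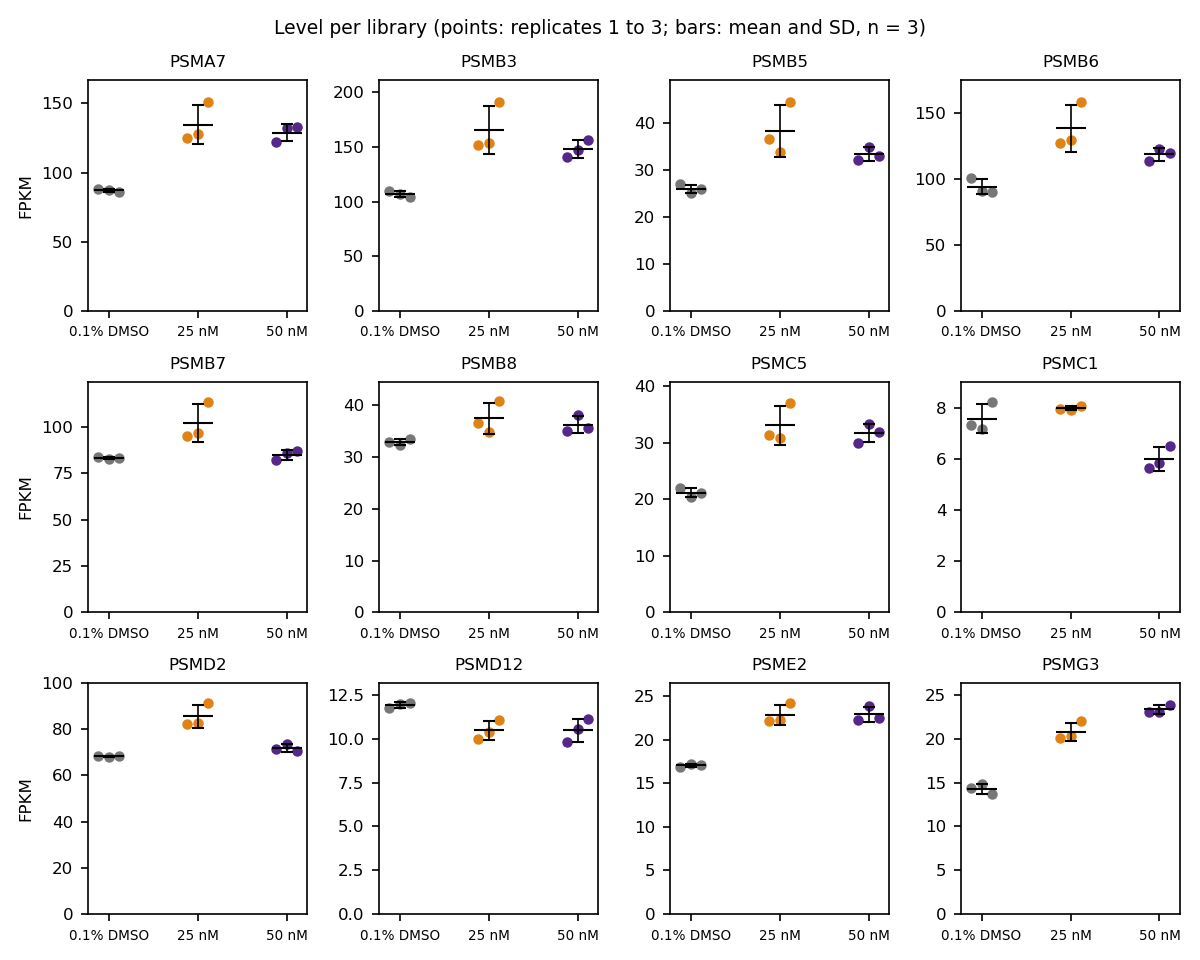
FPKM (y axis of each panel, from 0) of 12 proteasome genes in each library of 0.1% DMSO, 25 nM and 50 nM piericidin A; points are replicates 1 to 3 and bars the mean and SD. PSMA7, PSMB3, PSMB5, PSMB6, PSMC5, PSME2 and PSMG3 lie above DMSO in all 6 treated libraries, PSMD12 lies below, and PSMC1 lies below at 50 nM.

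The immunoproteasome genes PSMB8, PSMB9 and PSMB10 replace the catalytic subunits after interferon. They were expressed in DMSO cells, and all 3 rose at 25 nM and 1 rose at 50 nM, with medians of 0.24 and 0.14. The share risen at 50 nM was near the 29.2% of all tested genes called higher. Once the length trend was taken out, 1 of the 3 was called at each dose (medians 0.02 and 0.04). Without replicate 3 of 25 nM, 2 of the 3 rose at 25 nM (median 0.15), and 1 did without replicate 1 or 2 of DMSO. PSMB9 (ENSG00000240065) had 22.5, 21.9 and 22.4 FPKM in DMSO, 26.7, 26.5 and 33.9 FPKM at 25 nM and 25.5, 28.2 and 26.1 FPKM at 50 nM. It did not overlap DMSO at either dose, and rose by 0.37 ± 0.09 (adjusted p = 0.00628) and 0.25 ± 0.09 (adjusted p = 0.0314) at 25 and 50 nM. The call at 50 nM was lost under 6 of 16 other settings, among them without any 1 DMSO library and without replicate 2 or 3 of 50 nM (adjusted p up to 0.103).

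PSMB8 (ENSG00000204264), which lies beside PSMB9 on chromosome 6 on the opposite strand, had 32.9, 32.2 and 33.4 FPKM in DMSO, 36.6, 34.8 and 40.8 FPKM at 25 nM and 35, 38 and 35.6 FPKM at 50 nM. All treated libraries were above DMSO, yet only the 25 nM difference passed (0.18 ± 0.06, adjusted p = 0.0265), and the 50 nM difference did not (0.14 ± 0.06, adjusted p = 0.0652). The 25 nM call was lost under 4 settings, any 1 DMSO library left out among them, and the value was -0.017 with the length trend removed. PSMB10 (ENSG00000205220), one of the 5 genes with shared coding bases, had 3.57, 3.59 and 4.05 FPKM in DMSO, 4.02, 4.28 and 4.99 FPKM at 25 nM and 3.88, 4.2 and 4.32 FPKM at 50 nM. Its groups overlapped at both doses, and its 25 nM call (0.24 ± 0.09, adjusted p = 0.0475) was lost under 12 of 16 settings. The 50 nM difference was 0.14 ± 0.09 (adjusted p = 0.182).

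The difference between the mean log2 FPKM of PSMB8 to PSMB10 and that of PSMB5 to PSMB7 was -2.14, -2.08 and -2.00 in DMSO, -2.27, -2.25 and -2.29 at 25 nM and -2.14, -2.12 and -2.14 at 50 nM. PSMB10, whose low listed level is uncertain for its shared coding bases, enters this difference, which was not computed without it. At 25 nM this difference was lower than in DMSO without overlap, by -0.20 (exact permutation p = 0.1), by -0.19 without replicate 3 of 25 nM, and by -0.13 with the length trend removed. At 50 nM it was -0.06 from DMSO with overlap (exact permutation p = 0.2), and it turned to 0.0045 with the length trend removed.

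In the 19S particle 15 of 17 genes rose and 1 fell at 25 nM (median 0.32), and 7 rose and 2 fell at 50 nM (median 0.11). Over all tested genes 29.2% were called higher and 31.5% lower at 50 nM. The 17 genes summed to 463, 455 and 461 FPKM in DMSO, 546, 548 and 614 FPKM at 25 nM and 492, 516 and 511 FPKM at 50 nM, with no overlap between any of the 3 groups. The mean was 569 ± 38.3 FPKM at 25 nM, against 460 ± 4.47 FPKM in DMSO, a ratio of 1.24 and a difference of 110 FPKM. Without replicate 3 of 25 nM the difference was 87.8 FPKM, and 14 genes rose and 1 fell (median 0.27). At 50 nM the mean was 506 ± 12.9 FPKM, a ratio of 1.10 to DMSO, and the exact permutation p was 0.1 for each. The sums of FPKM over all genes were also above DMSO in every treated library. Whether the 19S sum rose relative to them was not tested. With fragment totals used for scaling, 12 rose and 1 fell at 50 nM (median 0.18), and with the length trend removed 10 rose and 1 fell (median 0.20). These settings called 34.1% and 32.2% of all tested genes higher at 50 nM.

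The summed 20S core over the summed 19S particle was 0.65, 0.63 and 0.62 on the log2 scale in DMSO, 0.74, 0.75 and 0.86 at 25 nM and 0.80, 0.80 and 0.83 at 50 nM. All 6 treated libraries were above DMSO, by 0.15 at 25 nM and 0.18 at 50 nM (exact permutation p = 0.1 each), and by 0.11 at 25 nM without its replicate 3. The 20S genes are shorter, with a median length of 2256 bases, against 4964 bases for the 19S genes. With the length trend removed the difference was -0.036 at 25 nM and 0.012 at 50 nM, so its direction depended on that step, and the cause was not tested.

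**Figure D4:**
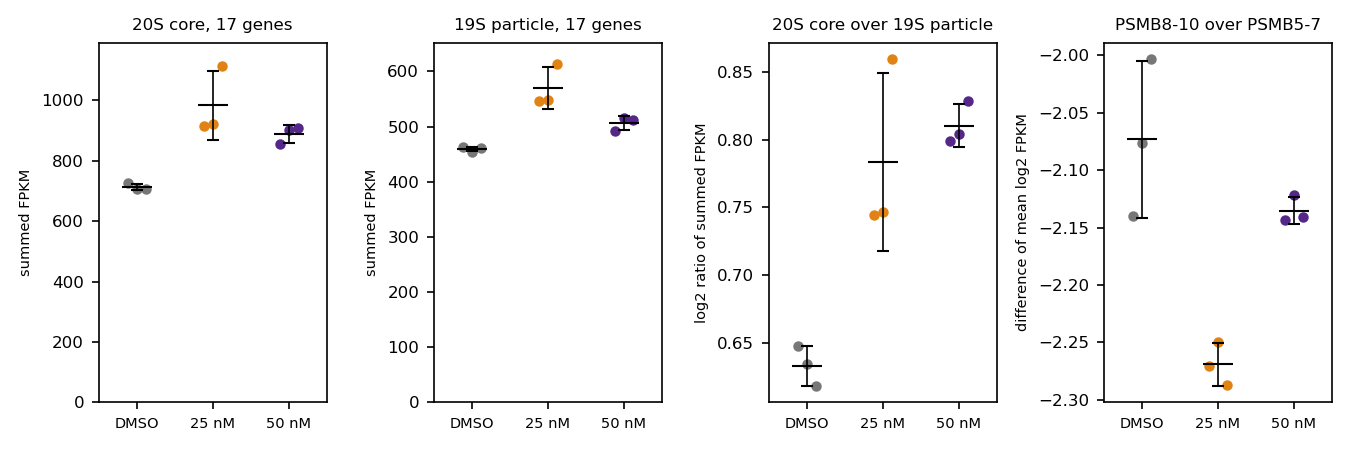
Per library of 0.1% DMSO, 25 nM and 50 nM piericidin A (x axes), from left to right, the summed FPKM of 17 20S genes, the summed FPKM of 17 19S genes, the log2 ratio of these sums, and the mean log2 FPKM of PSMB8 to PSMB10 minus that of PSMB5 to PSMB7; points are libraries, bars mean and SD (n = 3). Both sums are above DMSO in all treated libraries, as is the sum of FPKM over all genes. The ratio in the third panel is higher with treatment as deposited but differs by -0.036 at 25 nM once the length trend is removed. The change at 50 nM in the fourth panel then turns to 0.0045.

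Among the 6 ATPases, which form the unfolding motor, 5 rose at 25 nM, and 2 rose and 1 fell at 50 nM, with medians of 0.25 and 0.11. The 5 became 3 without replicate 1 or 3 of DMSO. At 50 nM the share that rose was near the 29.2% of all tested genes called higher. PSMC5 (ENSG00000087191) had 21.9, 20.5 and 21.1 FPKM in DMSO, 31.3, 30.9 and 36.9 FPKM at 25 nM and 30, 33.3 and 31.8 FPKM at 50 nM. It was above DMSO in every treated library, by 0.63 ± 0.07 (adjusted p = 0.000126) at 25 nM and 0.58 ± 0.07 (adjusted p = 0.000119) at 50 nM. Exons of FTSJ3 on the opposite strand hold 19.47% of PSMC5 exon bases and 10.54% of its coding bases. FTSJ3 averaged 17.9 FPKM in DMSO, 23.6 at 25 nM and 21.3 at 50 nM, and whether its fragments entered the PSMC5 level was not tested. PSMC4 (ENSG00000013275) had 19.6, 20.8 and 19.8 FPKM in DMSO, 27.3, 26.2 and 30.9 FPKM at 25 nM and 25.2, 24.9 and 24 FPKM at 50 nM. The groups did not overlap, and it rose by 0.48 ± 0.06 (adjusted p = 0.000221) and 0.30 ± 0.06 (adjusted p = 0.00228).

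PSMC1 (ENSG00000100764), an ATPase whose tail helps to open the gate of the core, went the other way. It had 7.36, 7.18 and 8.25 FPKM in DMSO, 7.97, 7.95 and 8.09 FPKM at 25 nM and 5.64, 5.86 and 6.54 FPKM at 50 nM. The 50 nM libraries were below all others, and the 25 nM libraries overlapped DMSO. Its log2 fold change was -0.33 ± 0.07 (adjusted p = 0.00244) at 50 nM and 0.08 ± 0.07 (adjusted p = 0.374) at 25 nM. On the opposite strand 47.65% of its coding bases lie in exons of NRDE2, which averaged 0.579 to 0.69 FPKM in the 3 groups. Whether the libraries keep strand is not given in the sources used here.

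Of the 11 non-ATPases, which include ubiquitin receptors, scaffolds and the deubiquitinase PSMD14, 10 rose and 1 fell at 25 nM, and 5 rose and 1 fell at 50 nM, with medians of 0.32 and 0.11. PSMD13 (ENSG00000185627), a lid subunit, had 20.7, 19.6 and 20.6 FPKM in DMSO, 26, 26.5 and 29 FPKM at 25 nM and 24.7, 25.4 and 24.1 FPKM at 50 nM. It rose without overlap, by 0.42 ± 0.05 (adjusted p = 0.000157) and 0.29 ± 0.05 (adjusted p = 0.000892). PSMD3 (ENSG00000108344), also of the lid, had 39.1, 36.9 and 38.7 FPKM in DMSO, 43.8, 43.1 and 50.3 FPKM at 25 nM and 46.8, 47.1 and 48.5 FPKM at 50 nM. Every treated library was above DMSO, by 0.26 ± 0.06 (adjusted p = 0.00556) and 0.31 ± 0.06 (adjusted p = 0.00143). PSMD14 rose at 25 nM (0.25) and PSMD4, a ubiquitin receptor, did so too (0.17), and neither was called at 50 nM (0.00 and -0.02).

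PSMD12 was the 1 member called lower at 25 nM. It had 11.8, 12 and 12.1 FPKM in DMSO, 9.98, 10.4 and 11.1 FPKM at 25 nM and 9.81, 10.6 and 11.1 FPKM at 50 nM. The treated libraries were all below DMSO. Its log2 fold change was -0.19 ± 0.06 at both doses (adjusted p = 0.0204 at 25 nM and 0.0173 at 50 nM), and 4 of 16 settings lost the call at each dose. Among these were the settings without replicate 3 of DMSO and without replicate 1 of the treated group at each dose, and without replicate 2 of DMSO at 25 nM. The call was also lost with the length trend removed at both doses and with fragment totals at 50 nM. Over the settings that lost it, the log2 fold change was -0.18 to -0.13 at 25 nM and -0.18 to -0.067 at 50 nM (limma adjusted p up to 0.311).

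Of the 4 activators, which open the core in place of the 19S particle, PSME2 and PSME3 rose at 25 nM and PSME2 at 50 nM. The share risen at 50 nM was near the 29.2% of all tested genes called higher. PSME2 (ENSG00000100911), a subunit of the interferon-inducible activator that it forms with PSME1, had 16.8, 17.3 and 17.1 FPKM in DMSO, 22.2, 22.2 and 24.2 FPKM at 25 nM and 22.3, 23.9 and 22.6 FPKM at 50 nM. It was above DMSO in every treated library, by 0.42 ± 0.05 at both doses (adjusted p = 0.000113 at 25 nM and 5.84e-05 at 50 nM). Its partner PSME1 differed by 0.18 (adjusted p = 0.051) and -0.01 (adjusted p = 0.89). PSME4 (ENSG00000068878), a nuclear activator, had 6.71, 6.88 and 7.52 FPKM in DMSO, 7.2, 7.26 and 6.32 FPKM at 25 nM and 6.87, 6.32 and 6.53 FPKM at 50 nM, with overlapping groups. Its log2 fold change was -0.02 ± 0.07 (adjusted p = 0.797) and -0.10 ± 0.07 (adjusted p = 0.249), and both turned positive with the length trend removed (0.20 and 0.12).

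PSMF1 (ENSG00000125818), which encodes the inhibitor PI31, had 15, 15.1 and 15 FPKM in DMSO, 16.6, 16.6 and 18 FPKM at 25 nM and 14.1, 14.5 and 14.1 FPKM at 50 nM. The 25 nM libraries were above DMSO and the 50 nM libraries below, without overlap. It rose by 0.18 ± 0.04 (adjusted p = 0.0054) at 25 nM, and the 50 nM difference of -0.08 ± 0.04 did not pass (adjusted p = 0.145).

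Of the 7 assembly chaperones 5 rose at 25 nM, and 4 rose and 2 fell at 50 nM, with medians of 0.44 and 0.30. Without PSMD9, which passed the expression filter through piericidin A libraries alone, 4 of 6 rose at 25 nM (median 0.37), and 3 rose and 2 fell at 50 nM (median 0.14). Of all tested genes 29.2% were called higher and 31.5% lower at 50 nM. PSMG3 (ENSG00000157778), which pairs with PSMG4 and helps to build the alpha ring, had 14.4, 14.8 and 13.7 FPKM in DMSO, 20.1, 20.3 and 22 FPKM at 25 nM and 23.1, 23.1 and 23.9 FPKM at 50 nM. The groups did not overlap and stood in the order of the dose, with rises of 0.54 ± 0.05 (adjusted p = 3.91e-05) and 0.71 ± 0.05 (adjusted p = 4.14e-06). PSMG4 averaged 1.15 ± 0.128 FPKM at 25 nM and 1.23 ± 0.05 FPKM at 50 nM, against 0.769 ± 0.0704 FPKM in DMSO (SD, n = 3 each), and rose by 0.52 and 0.62. PSMG1, of the other alpha ring chaperone pair, rose by 0.44 and 0.30, and its partner PSMG2 rose at 25 nM only (0.30, and -0.02 at 50 nM).

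The chaperones of the 19S base are PSMD5, PSMD9 and PSMD10. PSMD5 (ENSG00000095261) had 11.1, 11.2 and 11.8 FPKM in DMSO, 10.6, 10.3 and 10.3 FPKM at 25 nM and 8.83, 9.05 and 9.63 FPKM at 50 nM. The groups did not overlap, and the fall passed at 50 nM (-0.31 ± 0.05, adjusted p = 0.000452) and not at 25 nM (-0.12 ± 0.05, adjusted p = 0.0539). PSMD10 (ENSG00000101843), or gankyrin, had 17.1, 17.4 and 16.8 FPKM in DMSO, 18, 17.9 and 17.3 FPKM at 25 nM and 15.8, 15.5 and 15.7 FPKM at 50 nM. The 50 nM libraries were below the rest (-0.13 ± 0.03, adjusted p = 0.0104), and the 25 nM libraries overlapped DMSO (0.05 ± 0.03, adjusted p = 0.269). The fall at 50 nM was not called with scaling by fragment totals (-0.06).

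PSMD9 (ENSG00000110801), of the 5 genes with shared coding bases, had 32, 45 and 60 fragments in DMSO, 123, 112 and 111 at 25 nM and 203, 161 and 190 at 50 nM. In FPKM these were 0.135, 0.192 and 0.234, then 0.567, 0.494 and 0.524, then 0.895, 0.707 and 0.796. The groups stood in the order of the dose without overlap, and it rose by 1.15 ± 0.24 (adjusted p = 0.0035) and 1.66 ± 0.24 (adjusted p = 0.000314). Like PSMA6, PSMD9 was tested only because it was high in piericidin A libraries, so these p-values cannot serve as support for a rise.

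Between the doses, more proteasome genes were lower than higher at 50 nM relative to 25 nM. Of the 46, 15 were lower and 2 higher at 50 nM, with a median log2 difference of -0.15, where 33.5% of tested genes differed, 14.7% higher and 18.8% lower, with a median of -0.01. In 24 of the 46, the 50 nM libraries lay below the 25 nM libraries without overlap, as in 24.4% of all tested genes, and in 3 they lay above, beside 21%. The split depended on scaling. With fragment totals 7 members were lower and 3 higher, and 1358 of all genes were lower and 3157 higher, where the deposited scaling gave 2917 lower and 2288 higher. Without the length trend 10 members were lower and 2 higher, beside 2179 and 2994 of all genes. Without replicate 3 of 25 nM 14 members were lower and 2 higher (median -0.08), and without replicate 1 of 50 nM 8 were lower.

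By role the lower genes were 8 of 17 in the 19S particle (median -0.18), 2 of 17 in the 20S core (median -0.11), 3 chaperones (PSMD5, PSMD10 and PSMG2), PSME3 and PSMF1. The count in the 19S particle was 3 without replicate 1 of 50 nM, 3 with fragment totals and 5 with the length trend removed. Without replicate 3 of 25 nM the medians were -0.11 in the 19S particle and -0.0055 in the core. The difference in count between the 19S particle and the core was not tested. PSMC1 differed by -0.41 ± 0.07 (adjusted p = 0.00238) and PSMF1 by -0.26 ± 0.04 (adjusted p = 0.00207). PSMD2 (ENSG00000175166), the large scaffold that binds shuttle factors, had 71.6, 73.6 and 70.5 FPKM at 50 nM, 82.5, 82.8 and 91.5 FPKM at 25 nM and 68.6, 68 and 68.3 FPKM in DMSO. The 50 nM libraries lay between those of the other groups, by -0.25 ± 0.05 (adjusted p = 0.00368) against 25 nM. PSMD8 (ENSG00000099341), a lid subunit, had 34.7, 36.7 and 34.7 FPKM at 50 nM, 41.1, 41.6 and 46.7 FPKM at 25 nM and 33.1, 34 and 32.9 FPKM in DMSO. It too lay lower at 50 nM than at 25 nM, by -0.28 ± 0.05 (adjusted p = 0.00386).

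PSMG2 (ENSG00000128789) had 11.4, 11.6 and 12 FPKM at 50 nM, 14.4, 13.6 and 15.6 FPKM at 25 nM and 12.1, 12.2 and 11.1 FPKM in DMSO, a difference between doses of -0.32 ± 0.06 (adjusted p = 0.00391). PSME3 (ENSG00000131467), a nuclear activator, had 22.1, 21.7 and 20.9 FPKM at 50 nM, 24.6, 24.6 and 26.5 FPKM at 25 nM and 21.3, 21.1 and 20.8 FPKM in DMSO, a difference of -0.22 ± 0.04 (adjusted p = 0.00426). In both genes the 25 nM libraries were above the other 6. The 2 members higher at 50 nM than at 25 nM were PSMG3 (0.17 ± 0.05, adjusted p = 0.0258) and PSMA6 (0.77 ± 0.26, adjusted p = 0.0475), and these calls were lost under 8 and 10 of 16 settings. For PSMG3 those included leaving out replicate 1 or 2 of 25 nM or any 1 library of 50 nM, and for PSMA6 any 1 library of either dose and replicate 2 or 3 of DMSO. PSMA6 was also tested only because piericidin A libraries, every 50 nM library among them, reached the expression filter.

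Gene length was looked at because fold changes over all tested coding genes went down with it. At 25 nM the median log2 fold change in 4 equal groups of coding genes, shortest to longest, was 0.19, 0.02, -0.07 and -0.21, and that of the proteasome genes in the same length groups was 0.37, 0.42, 0.32 and 0.31, from 20, 9, 11 and 6 genes. At 50 nM the medians over all coding genes were 0.08, -0.08, -0.14 and -0.23, and those of the proteasome genes 0.21, 0.31, 0.07 and 0.14. The median of the proteasome genes was above that of all coding genes in each length group at both doses. Over the 46 members Spearman's rho of length with log2 fold change was -0.11 at 25 nM and -0.095 at 50 nM, and over the 41 with under 50% shared coding bases it was -0.31 and -0.27, a description across genes that share the same libraries. After the length trend was taken from every gene, 35 members rose at 25 nM (median 0.30), and 28 rose and 5 fell at 50 nM (median 0.20).

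**Figure D5:**
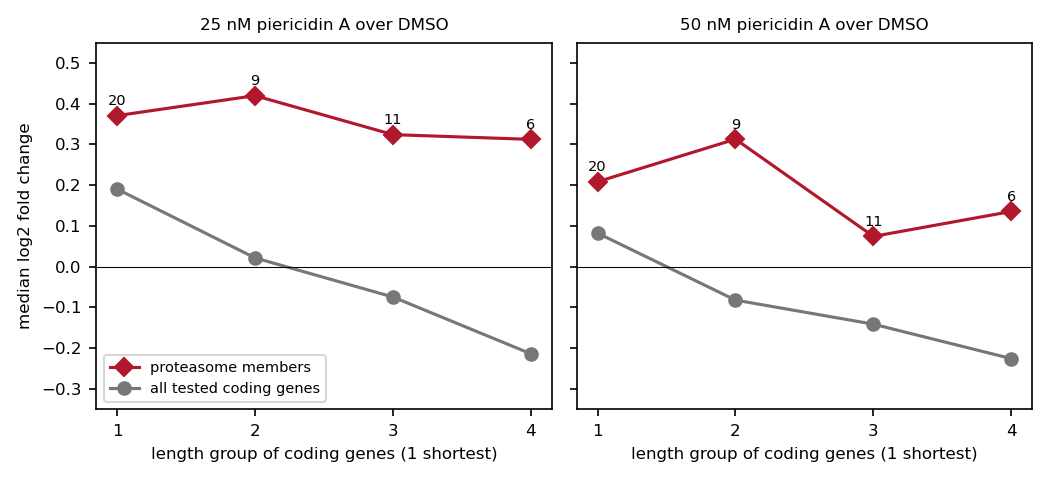
Median log2 fold change of FPKM + 0.1 (y axis) in 4 equal length groups of tested coding genes (x axis, 1 shortest), for the proteasome genes (diamonds, with their number) and for all tested coding genes (circles), at 25 nM (left) and 50 nM (right) over DMSO. The proteasome medians, 0.07 to 0.42, lie above those of all coding genes, -0.23 to 0.19, in each length group.

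Genes that work around the proteasome were counted in lists of their own, to be read beside the 26.3% of all tested genes called higher and 25.8% called lower at 25 nM, and the 29.2% and 31.5% at 50 nM. Of 14 associated factors outside the PSM names, 6 rose and 4 fell at 25 nM (median 0.09), and 5 rose and 7 fell at 50 nM (median -0.12). The median at 25 nM was 0.04 without replicate 3 of that dose and 0.15 without its replicate 2, and 4 fell at 50 nM with fragment totals or with the length trend removed (medians -0.049 and 0.027). POMP, the chaperone that matures the beta rings, averaged 93.2 ± 11.6 FPKM at 25 nM and 83.3 ± 4.63 FPKM at 50 nM, against 66.9 ± 0.317 FPKM in DMSO (SD, n = 3 each), and rose by 0.47 and 0.31. ADRM1, a ubiquitin receptor of the 19S particle, rose by 0.42 and 0.36. UBE3C, a proteasome-bound ubiquitin ligase, and KIAA0368, the scaffold also called ECPAS, fell, UBE3C by 0.50 and 0.45 and KIAA0368 by 0.19 and 0.34. The 25 nM call of KIAA0368 was lost with the length trend removed (-0.021).

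Of 10 genes that control proteasome gene expression, 5 fell at 25 nM and the other 5 were not called (median -0.20), and at 50 nM 6 fell and 2 rose (median -0.33). With the length trend removed 3 fell and 2 rose at 25 nM, and 5 fell and 2 rose at 50 nM. NFE2L1 had 67.7, 64.6 and 64.8 FPKM in DMSO, 70.5, 71.4 and 65.2 FPKM at 25 nM and 53.1, 56.3 and 51.2 FPKM at 50 nM. The 50 nM libraries were below all others (-0.30 ± 0.05, adjusted p = 0.000813), and the 25 nM libraries overlapped DMSO (0.07 ± 0.05, adjusted p = 0.27), although the 25 nM difference was called higher without the length trend (0.14) and with array weights (0.10, limma adjusted p = 0.0217). DDI2, the protease that activates the NFE2L1 protein, fell by 0.52 and 0.39 at 25 and 50 nM. NGLY1, which removes sugars from that protein, fell by 0.19 and 0.59. BTRC, a ligase subunit that marks it for degradation, fell by 0.51 and 0.70. Without the length trend the calls of NGLY1 at 25 nM (-0.032) and DDI2 at 50 nM (-0.13) were lost.

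Of 6 genes for ubiquitin and its activating enzymes, 5 rose at 25 nM (median 0.32), and 2 rose and 1 fell at 50 nM (median 0.00), where 1 rose without any 1 DMSO library and without replicate 2 or 3 of 50 nM. The polyubiquitin gene UBB rose by 0.67 and 0.37, and the activating enzyme gene UBA6 differed by -0.12 (adjusted p = 0.177) at 25 nM and fell by 0.26 at 50 nM. Its values were 0.14 and -0.013 with the length trend removed, so that its direction at 25 nM turned, and the fall was not called with fragment totals either. Of 16 genes for the segregase VCP, its cofactors and shuttle factors, 5 rose and 3 fell at 25 nM (median 0.04), and 3 rose and 5 fell at 50 nM (median -0.05), shares near those of all tested genes. With the length trend removed 7 rose and 3 fell at 50 nM. UFD1L, a VCP cofactor, rose by 0.81 and 1.09, and FAF2, which recruits VCP to membranes, fell by 0.25 and 0.51. Of 13 antigen processing partners, 7 rose and 2 fell at 25 nM (median 0.20), and 5 rose and 4 fell at 50 nM (median 0.02), with 2 fallen at 50 nM under fragment totals. At 25 nM 1 fell without any 1 DMSO library, without replicate 1 of 25 nM and without any 1 library of 50 nM. ERAP2, which trims peptides made by the proteasome, rose by 0.44 and 0.79.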

How the data were processed

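RNA of 9 ACHN libraries (3 groups of 3) was measured. The authors deposited FPKM per gene and, in a second table, log2 FPKM of the filtered genes with symbol, gene length and position. The build is hg38 per the submitters' processing notes. The aligner, the counting program, strandedness and annotation release are not given in the sources used here. FPKM times length gave whole fragments for 100% of values within a tolerance of 0.01, which served for depth and for scaling by fragment totals; intervals on such depths would cover counting error only.

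Log2(FPKM + 0.1) was tested with limma 3.58.1 in R 4.3.3 (lmFit, eBayes with trend and robust), with group as the only covariate and all 9 libraries. The 15541 genes that reached 0.5 FPKM in 3 or more libraries were tested, and p-values were adjusted by Benjamini-Hochberg over all of them. The pseudocount shrinks fold changes of low genes. Sums and ratios had exact two-sided permutation tests over 20 splits (SciPy 1.17.1). Scripts were tested on simulated data. The length trend was removed by lowess with a span of 0.3 (in R, and statsmodels 0.14.6 for sums), and 16 other settings were run. Overlaps came from GENCODE v29 exons, whose union length equalled the deposited length for 44 of 46 members.

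Genes given in full are, per role, the 2 with the smallest p at 50 nM against DMSO and any called against the direction of the role, the catalytic subunits, and the 6 with the smallest p between doses. For the other lists the rule took the 2 with the smallest p at 50 nM plus NFE2L1, DDI2, POMP and ADRM1. Most of these are given by log2 fold change only, and of the antigen processing partners only ERAP2 is named. PSMA3, PSMG4 and other members outside this rule were named after their values were seen. Members and lists were chosen with earlier results of these data known. Replicate numbers were not taken as pairs, because nothing in the labels says that a number marks a shared day or culture. Deviations of same-numbered libraries from their group means correlated at -0.05 to 0.08.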

Additional observations from a re-analysis of the deposited data

How the results depend on the processing

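The 5 members with shared coding bases had only 18 to 626 fragments per library. Over the 9 settings that each left out 1 library, members higher numbered 36 to 40 at 25 nM and 21 to 29 at 50 nM, and members lower 0 to 2 at 25 nM and 3 to 5 at 50 nM. Between the doses, 50 nM over 25 nM, they gave 0 to 2 members higher and 8 to 17 lower, and 3417 to 5829 genes changed among all tested, 3417 of them without replicate 1 of 50 nM. All genes changed numbered 6789 to 7981 at 25 nM and 8296 to 10115 at 50 nM. Members lower at 25 nM against DMSO numbered 2 with fragment totals, 0 with the length trend removed and 2 with array weights, and at 50 nM against DMSO 2 with fragment totals. Members higher at 50 nM against DMSO numbered 33 with fragment totals (median 0.27) and 30 with array weights. These settings called 34.1% and 31.9% of all tested genes higher at 50 nM, beside 29.2% in the main fit. Members higher at 50 nM than at 25 nM numbered 1 without the filter, 1 with 2 groups only, and 1 in each of 2 settings chosen after seeing the data, which kept members at 0.5 FPKM or more in all 9 libraries or members with under 50% of their coding bases shared. Members lower numbered 7 with fragment totals. With the length trend removed, the 25 nM difference of the 20S over 19S ratio, also added after seeing the data, was -0.036, the 50 nM difference of immunoproteasome and constitutive genes was 0.0045, and single log2 fold changes turned round: at 25 nM PSMB8 to -0.017, PSMD10 to -0.10 and PSME4 to 0.20, and at 50 nM PSMB7 to -0.093, PSME4 to 0.12, PSMF1 to 0.043 and PSMG2 to 0.0013. PSME4 at 25 nM was also 0.028 with array weights and -0.058 to 0.040 with 1 library left out, above 0 without replicate 3 of DMSO (0.025) or of 25 nM. PSMG2 at 50 nM was 0.052 with fragment totals and -0.061 to 0.0089 with 1 library left out, above 0 without replicate 2 of DMSO. The cause of these changes was not tested. With replicate number as a block (replicate block), 40 members were higher and 1 lower at 25 nM, 24 and 4 at 50 nM, and 0 and 15 between the doses, of 7640, 9107 and 4587 genes changed; not every library correlated best with its own number.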
